A study of Mus musculus with 2931 samples.

Results

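Prox1, Lyve1, Pdpn, Mmrn1 and Reln are genes by which the endothelium of lymph vessels is commonly told from that of blood vessels. They were taken from the deposited count table by their symbols, as 5 of its 18072 genes. Their reads were followed in 2931 single endothelial cells (EC) sorted from the distal lungs of mice, of which the submitters labelled 82 as Lymphatic EC and 2849 with one of 9 labels of blood endothelium. Lungs were taken before birth, at E18.5, and after birth at P1, P7 and P21 under normal conditions, and at P7 after hyperoxia, each time point with 1 female and 1 male mouse name. Strain, genotype and oxygen level are not given in the sources used here, nor is it stated whether a mouse name is 1 animal or a pool, so a p-value measures the spread between these mouse names alone. Most cells (2694) came from a gate for the endothelial surface protein CD31, 224 from a gate named mesench and 13 from a CD45 gate. Of the lymphatic cells, 81 carry the CD31 gate and 1 the mesench gate. Each cell name also holds a code that starts with DC. Cells that share a code are called a run below, a reading of the names alone.

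Lymph vessels drain fluid and immune cells from tissues, and in the developing embryo most of their endothelium arises from veins. PROX1, a homeobox transcription factor, sets and maintains lymphatic fate. LYVE1 is a receptor for the sugar polymer hyaluronan and serves as an entry point for leukocytes on lymphatic capillaries; podoplanin, the product of Pdpn, is a membrane glycoprotein that binds CLEC-2 on platelets; multimerin 1, the product of Mmrn1, and reelin, the product of Reln, are large secreted glycoproteins. None is made by lymphatic cells alone: some macrophages carry LYVE1, alveolar type 1 cells, fibroblasts and mesothelium carry podoplanin, and platelets hold multimerin 1.

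On GRCm38, in GENCODE M21, Prox1 lies at chr1:190118035-190170714 on the minus strand, Lyve1 at chr7:110850607-110863239 on the minus strand, Pdpn at chr4:143267431-143299564 on the minus strand, Mmrn1 at chr6:60924976-60989378 on the plus strand and Reln at chr5:21884454-22344702 on the minus strand. Exons of Prox1 overlap the antisense gene Prox1os, and exons of Reln overlap a predicted gene; neither neighbour is a row of the count table, and whether the counting used strand is not given in the sources used here. The submitters' processing notes name the human build GRCh38, so the positions are those of the mouse annotation and not of the counts.

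The 4 members with a RefSeq promoter entry are the ones whose reads were concentrated in lymphatic cells, and 250 bases before a start are shown for each (GRCm38.p6, strand of the gene). Capitals mark matches to 5 short motifs of factors known in endothelium, searched on both strands: the letters AACAAT for SOX factors, the letters CCGGAA for ETS factors, the letters AGGTCA for nuclear receptors, the letters AGATAA for GATA factors and the letters TGGAAA for NFAT factors. The intervals are chr1:190169516-190169765 for Prox1, chr4:143299565-143299814 for Pdpn, chr6:60944067-60944316 for Mmrn1 and chr5:22344706-22344955 for Reln. The RefSeq starts behind the Mmrn1 and Prox1 stretches lie inside the gene spans given above, so these stretches are internal to the GENCODE gene, whereas those of Pdpn and Reln lie just outside it.
Prox1: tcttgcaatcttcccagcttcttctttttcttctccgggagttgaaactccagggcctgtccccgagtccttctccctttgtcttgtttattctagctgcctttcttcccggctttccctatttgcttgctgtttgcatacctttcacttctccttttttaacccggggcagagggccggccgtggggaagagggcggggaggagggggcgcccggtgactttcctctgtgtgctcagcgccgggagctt
Pdpn: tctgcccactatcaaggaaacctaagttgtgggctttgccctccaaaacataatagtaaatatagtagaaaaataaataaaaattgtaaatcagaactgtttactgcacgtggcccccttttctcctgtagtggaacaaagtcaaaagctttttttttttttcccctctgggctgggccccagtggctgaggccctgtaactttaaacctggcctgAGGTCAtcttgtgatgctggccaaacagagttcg
Mmrn1: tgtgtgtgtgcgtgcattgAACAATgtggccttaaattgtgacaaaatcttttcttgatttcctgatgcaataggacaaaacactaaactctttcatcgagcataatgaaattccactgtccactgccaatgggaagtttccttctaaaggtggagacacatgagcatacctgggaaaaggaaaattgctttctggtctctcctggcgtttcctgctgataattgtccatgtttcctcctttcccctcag
Reln: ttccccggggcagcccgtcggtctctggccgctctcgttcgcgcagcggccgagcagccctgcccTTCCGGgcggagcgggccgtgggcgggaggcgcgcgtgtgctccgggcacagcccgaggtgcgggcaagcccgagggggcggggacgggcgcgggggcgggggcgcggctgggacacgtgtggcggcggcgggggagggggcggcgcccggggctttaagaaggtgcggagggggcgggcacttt
The Mmrn1 stretch holds 1 SOX match, the Pdpn stretch 1 nuclear receptor match and the Reln stretch 1 ETS match; Prox1 holds 0 at this start and 0 at a second start. Of 32851 RefSeq promoters, 9.42% hold the SOX letters, 12% the ETS letters, 14% the nuclear receptor letters, 9.99% the GATA letters and 18.6% the NFAT letters, so 1 match per stretch is a description of these letters and no more. No motif was shared by all 4 stretches. The base composition ranged widely, from 42.4% G and C in Mmrn1 and 43.2% in Pdpn to 80% in Reln.

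The cells were sequenced deeply for single cells, with 42095 to 2967985 reads in genes per cell and 61354 to 2913424 in the lymphatic cells. The median per mouse ran from 188610 reads in the male P7 mouse to 928377 in the female P7 mouse. Levels below are CPM, reads per 1000000 reads of the same cell or summed cells, and a cell is said to carry a member at 10 CPM or more. The cells labelled lymphatic held the wider lymphatic program too. In 6 mice with at least 5 such cells, Flt4, the receptor for VEGF-C, had 3505 ± 967 CPM (SD, n = 6 mice). The chemokine gene Ccl21a had 1377 ± 2164 CPM, from 291 CPM to 5780 CPM in the male P7 mouse, which lifts its mean. Of 7 markers of blood endothelium, Flt1 (mean 13.1 CPM against 444 CPM over the other sums) and Nrp1 (13.9 against 712 CPM) were lower in every lymphatic sum than in any other sum. The other 5 overlapped, though all but Kdr had a lower mean in lymphatic sums. Kdr was at 771 against 742 CPM, Plvap at 447 against 1286 CPM and Emcn at 219 against 1028 CPM. Cd34 was at 74.8 against 993 CPM and Sox17 at 15.3 against 253 CPM. Of 6 macrophage and leukocyte markers, Ptprc, Csf1r and Cd163 stayed at or below 0.324 CPM in every lymphatic sum, and Cd68 and Adgre1 reached 10.3 and 11.8 CPM. Adgre1 had a higher mean in lymphatic than in other sums (1.97 against 0.0125 CPM), but only 1 lymphatic cell had a read of it. Mrc1, which lymphatic endothelium also makes, had a higher mean as well (278 against 2.30 CPM). It had a read in 68.3% of lymphatic cells, and its lowest lymphatic sum was 104 CPM.

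Of the 5 members, 4 had nearly all their reads in the 82 lymphatic cells. The share was 99.4% for Reln, 93.5% for Pdpn, 90.2% for Prox1 and 89.1% for Mmrn1. Lyve1 was the exception, with 5.31% of its 3227301 reads in lymphatic cells and the rest in blood endothelium. These shares and the levels by label are descriptions, since the labels rest on the expression of the same cells.

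**Figure D1:**
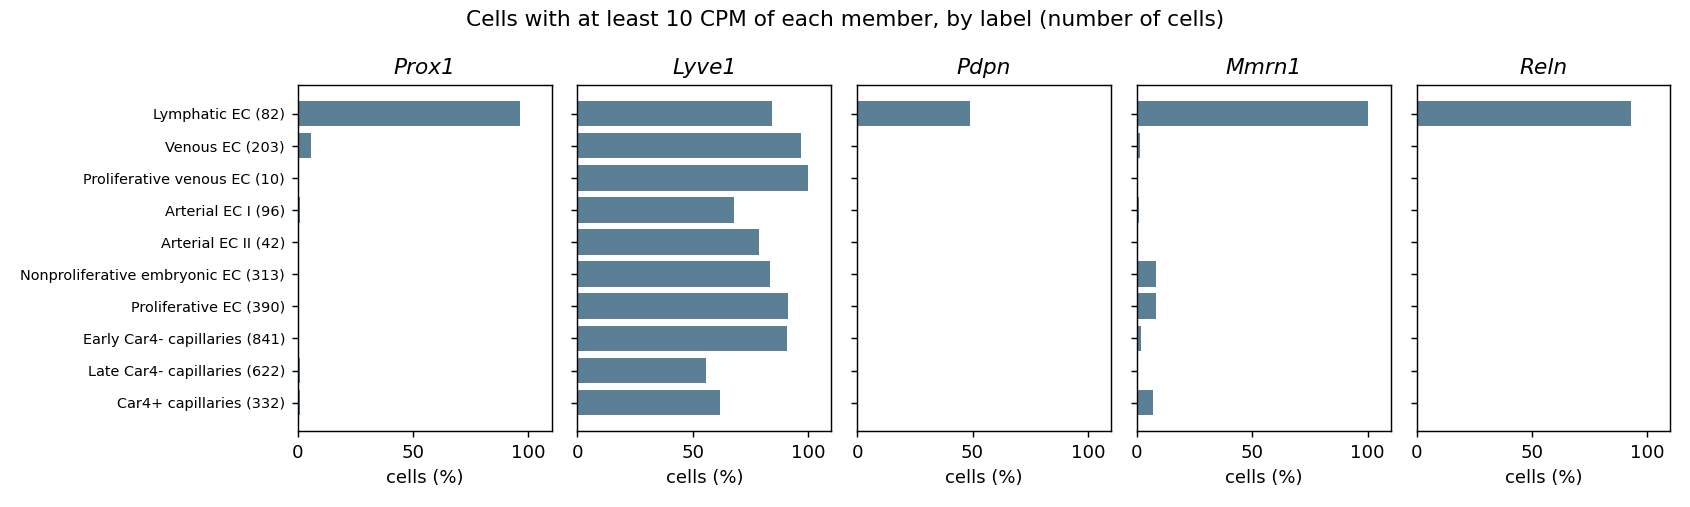
Share of cells (percent, horizontal axis from 0) with at least 10 CPM of each member, for the 10 labels, with the number of cells in brackets. Mmrn1 was carried by 100% and Prox1 by 96.3% of lymphatic cells and by few others, whereas Lyve1 was carried by 55.8% to 100% of the cells of every label.

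Every lymphatic cell carried at least 2 members. All 5 were carried by 33 of 82 cells, 4 by 36, 3 by 11 and 2 by 2 cells. Mmrn1 was in all 82 cells and had a median of 1787 CPM per cell; Prox1 was carried by 79 cells at a median of 451 CPM, Reln by 76 at 556 CPM and Lyve1 by 69 at 2457 CPM. Pdpn was the faint member, carried by 40 cells, with a median of 9.59 CPM or 7 reads. It had a read in 85.4% of the cells (95% exact interval 75.8% to 92.2%, for counting error only) and in 39.0% once every cell was thinned to 50000 reads. Per kilobase of exon, the order of the mean levels over 6 mice was Lyve1 at 982, Mmrn1 at 291, Prox1 at 64.2, Reln at 28.6 and Pdpn at 8.21 CPM per kb. Over the 82 cells, which share runs and mice, the rank correlations between pairs of members ran from -0.18 for Prox1 with Lyve1 to 0.46 for Mmrn1 with Reln.

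Prox1 in lymphatic cells was 353 CPM in the female and 191 CPM in the male E18.5 mouse, 735 and 525 at P1, 0 and 427 at P7, 459 and 1913 at P21, and 680 and 674 after hyperoxia. The value of 0 belongs to a single cell with 750770 reads, in which 3 reads would be 4.00 CPM; that cell carried Mmrn1 at 2127 CPM and Reln at 422 CPM. The P21 male value comes from 2 cells, with reads in only 1167 and 760 genes. Both P1 mice stood above the E18.5 mice; in the 3 mice tested, 46.7% of 12951 genes likewise lay above in both P1 mice. Between P1 and E18.5 the log2 fold change was 1.63 (SE 0.67), with an adjusted p of 0.789 by edgeR's quasi-likelihood test, which used the male E18.5 mouse alone because the female had 2 cells.

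Lyve1 in lymphatic cells was 3085 and 3539 CPM at E18.5, 2915 and 2876 at P1, 3230 and 2474 at P7, and 3403 and 1986 after hyperoxia. At P21 it was 200 CPM in the female mouse and 0 in the male, below every other mouse. The share of all genes that lie lowest at P21 in this way was not computed. The 5 lymphatic cells of P21 came from 3 and 2 cells per mouse, and 4 of them had 0 reads of Lyve1 among 357076 to 684894 reads per cell, while all 5 carried Mmrn1 at 1592 to 7108 CPM and Prox1 at 448 to 1942 CPM. For the male mouse 3 reads would be 3.29 CPM. The 2 male cells had reads in only 1167 and 760 genes, and the 3 female cells in 3143 to 4592 genes. Whether this bears on the levels at P21 was not tested. Elsewhere 9 of 77 lymphatic cells fell under 10 CPM of Lyve1. They were 5 of 26 cells in the female P1 mouse, 2 of 5 in the male P7 and 2 of 6 in the male hyperoxia mouse. In the male P7 mouse 88.0% of the Lyve1 reads were in 1 cell. With fewer than 5 cells in each P21 mouse, the difference was not tested, and 1 of the 2 male cells came from the mesench gate.

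Pdpn was 7.47 and 5.63 CPM in the lymphatic cells of E18.5, 12.8 and 31.2 at P1, 0 and 16.4 at P7, 14.3 and 1.10 at P21, and 12.3 and 11.2 after hyperoxia. The P1 mice lay above both E18.5 mice, as did 46.7% of genes against the 1 E18.5 mouse tested, and differed widely from each other. Mmrn1 was 1845 and 1224 CPM at E18.5, 2565 and 1383 at P1, 2127 and 1027 at P7, 2909 and 4655 at P21, and 2225 and 1819 after hyperoxia. Both P21 mice lay above all other mice, again on 3 and 2 cells, and the share of all genes that do so was not computed. Reln was 401 and 651 CPM at E18.5, 800 and 567 at P1, 422 and 348 at P7, 944 and 23 at P21, and 683 and 1020 after hyperoxia. The P21 mice were far apart in Reln, and the hyperoxia mice lay above the P7 mice in normal conditions, as did 25.9% of genes against the 1 P7 mouse tested.

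**Figure D2:**
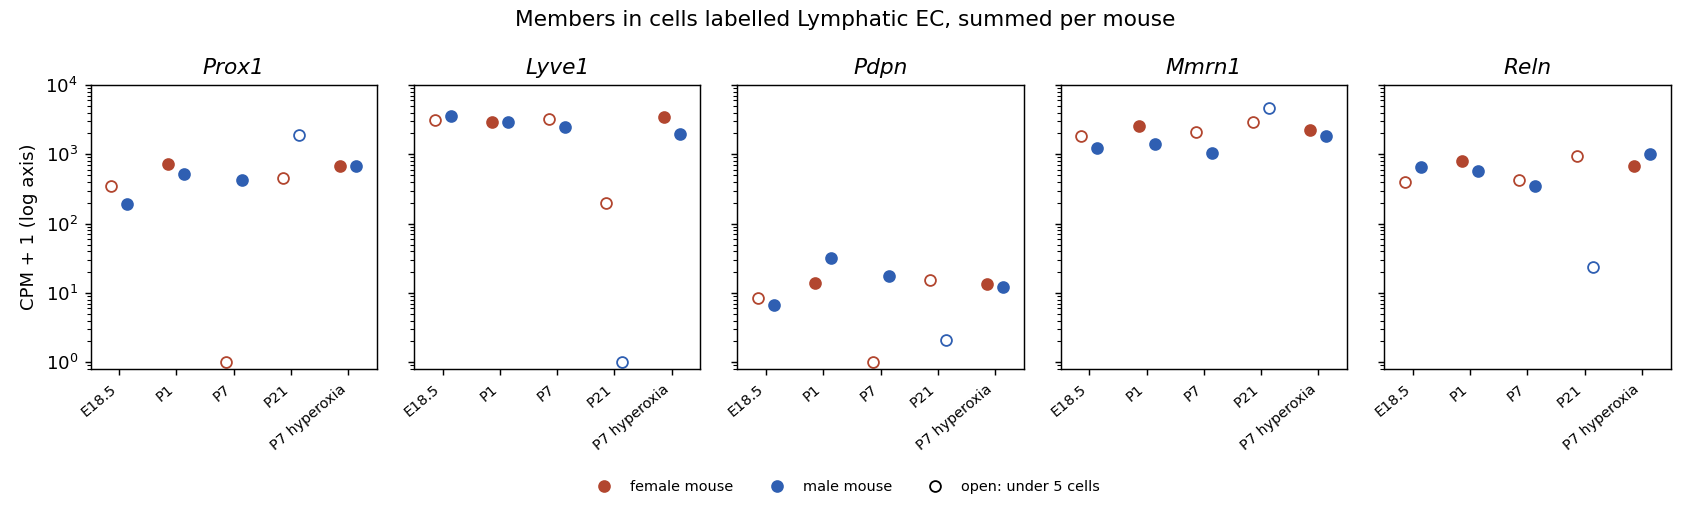
CPM + 1 (log axis) of each member in the lymphatic cells of each mouse, by group; red is the female and blue the male mouse, and open points stand for under 5 cells. Lyve1 lies between 1986 and 3539 CPM outside P21 and at 200 and 0 CPM at P21, where Mmrn1 is highest.

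In lymphatic cells 0 of 5 members passed an adjusted p of 0.05 in any of 3 comparisons. For P1 against E18.5 the background was 0% of 12951 genes called, for P7 against P1 it was 0.0154%, and for hyperoxia at P7 it was 0.00772%. At an unadjusted p under 0.05 there were 789, 346 and 485 genes in these comparisons, with 1 member among them, Prox1 for P1 against E18.5 (unadjusted p = 0.0346). DESeq2 called 4.65%, 0.633% and 0.849% of genes and 0 of 5 members. The largest estimate was that of Pdpn for P1 against E18.5, at a log2 fold change of 1.90 with an SE of 2.40, followed by Prox1, given above, and by Reln under hyperoxia, at 1.13 (SE 0.67, adjusted p = 1). Only the male mouse stands for E18.5 and for P7, with 10 and 5 cells, and is assumed to vary like the others. In the male P7 mouse the richest cell held 88.0% of the reads of Lyve1, 83.4% of Reln and 68.1% of Mmrn1. For Prox1 it was 52.5% and for Pdpn 39.5%. The median of all genes was itself displaced, by 0.66 for P1 against E18.5 and by -0.38 for P7 against P1. The 5 cells of the male P7 mouse also held 1145 CPM of 4 fibroblast markers, led by Col1a1 at 1051 CPM, against 0 to 12.3 CPM in the other 5 mice; the part of these reads in the comparisons was not tested.

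The rest of the lymphatic program, from lists of the pathway, was read in the same cells. Of 7 genes of the VEGF-C axis in the table, Flt4 and the coreceptor gene Nrp2 (1341 ± 374 CPM) were higher in all 6 lymphatic sums than in any other sum; Kdr was at 771 ± 127 CPM (SD, n = 6 mice) and overlapped. Of 9 transcription factors, Tbx1 (105 ± 38.9 CPM against at most 2.23 elsewhere) stood above all other sums, while Nr2f2, which acts upstream of Prox1 in veins, had 702 ± 156 CPM and overlapped with a highest value of 753 elsewhere. Of 8 genes of valves, junctions and adhesion, the gap junction gene Gja1 (811 ± 164 CPM) and the integrin gene Itga9 (237 ± 124 CPM) stood above, and of 5 of leukocyte traffic, Ccl21a and Thy1 (246 ± 156 CPM). Of 12 genes of known partners or relatives of the members none stood above. Highest were Mmrn2 at 246 CPM, the hyaluronan gene Hyal2 at 216 CPM and Emilin1 at 151 CPM. The means over the other sums were 293, 386 and 99.2 CPM. The reelin receptor gene Vldlr had 36.1 CPM, and Clec1b, which encodes CLEC-2, 1.33 CPM. No gene of these 5 lists passed the test in the 3 lymphatic comparisons, among 5, 9, 8, 4 and 9 genes tested; the nearest was Ccl21a, at 5780 CPM in the male P7 mouse and a log2 fold change of -3.96 under hyperoxia (adjusted p = 0.161).

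Lyve1 was widespread in blood endothelium. It had a read in 2311 of 2849 blood-labelled cells (81.1%; 78.0% when thinned), and 2236 carried 10 CPM or more. Over mice with at least 5 cells of a label, its mean was 2866 ± 578 CPM in lymphatic EC (SD, n = 6), 2326 ± 1377 in Early Car4- capillaries (n = 6), 2164 ± 1826 in arterial EC I (n = 7), 2158 ± 401 in venous EC (n = 9), 1909 ± 1739 in arterial EC II (n = 4), 1555 ± 824 in proliferative venous EC (n = 2), 1521 ± 823 in proliferative EC (n = 9), 1061 ± 539 in Late Car4- capillaries (n = 6), 991 ± 53.7 in nonproliferative embryonic EC (n = 2) and 989 ± 728 in Car4+ capillaries (n = 8). No neighbours in this order differ by more than their spread. The mice behind each mean differ in age and hyperoxia, so the order mixes label with both. Early Car4- capillaries had 4025 and 3693 CPM after hyperoxia, against 734 to 2557 CPM in the other mice averaged. Arterial EC I had 45.9 and 348 CPM at E18.5, and 3019 and 4969 CPM after hyperoxia. Lyve1 was carried by 97.0% of venous and 90.7% of Early Car4- cells, but by 55.8% of Late Car4- and 61.7% of Car4+ cells.

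**Figure D3:**
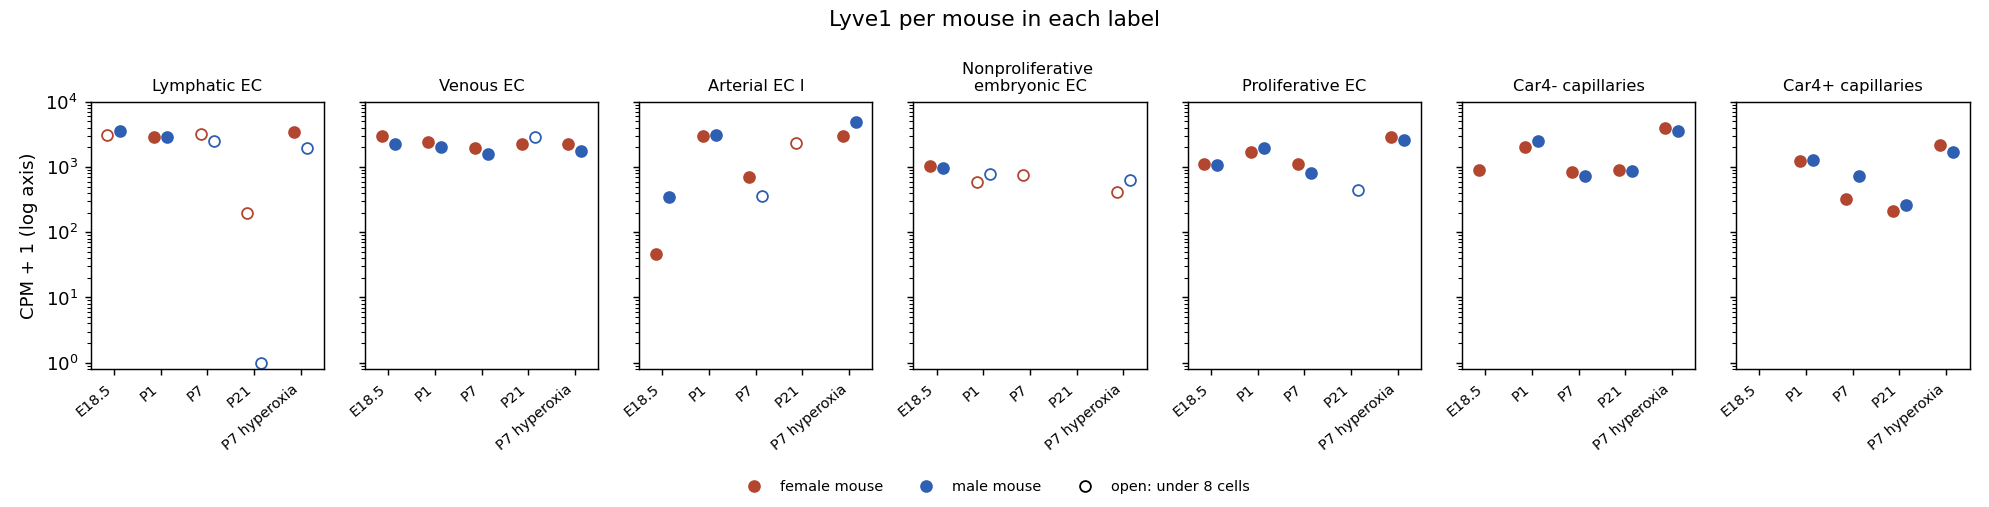
Lyve1 as CPM + 1 (log axis) per mouse in 7 classes of cells, by group; red is the female and blue the male mouse, and open points stand for under 8 cells. Venous EC lie between 1592 and 2977 CPM, and arterial EC I between 45.9 and 4969 CPM.

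Across the ages, Lyve1 in the CD31-gate cells of blood endothelium was highest at P1. It was 1098 and 1000 CPM in the E18.5 mice, 1947 and 2232 at P1, 908 and 936 at P7, and 904 and 759 at P21, so the P1 mice did not overlap the others. Permuting the 8 mice over the 4 ages in every possible way, with the between-age variance as the statistic, gave an exact p = 0.00952 for Lyve1, the smallest this design allows, and at most 0.0381 under the 6 alternatives run. The share of all genes that reach this p, or that set P1 apart, was not computed. The test was run for 5 members and its p-values are not adjusted. It gave p = 0.019 for Prox1, 0.0476 for Mmrn1, 0.21 for Pdpn and 0.448 for Reln; with cells of every gate, Prox1 had p = 0.343 and Mmrn1 p = 0.0571. The labels that make up blood endothelium differ by age. With Car4- and embryonic EC alone, an alternative added after the values were seen, the exact p for Lyve1 was also 0.00952 and that for Prox1 was 0.448.

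In capillary endothelium the peak at P1 stood in the sums of each mouse. Nonproliferative embryonic EC had 1029 and 953 CPM of Lyve1 at E18.5. The Car4- capillaries, Early and Late together, had 2056 and 2546 CPM at P1, 825 and 732 at P7, and 895 and 858 at P21. At P7 130 of 206 and 100 of 116 Car4- cells carried Lyve1, and at P21 169 of 272 and 146 of 268, against 164 of 181 and 119 of 122 at P1. The 2 P1 mice thus lay above those of E18.5, P7 and P21 without overlap. The E18.5 cells bear another label. Early cells made up 160 of 181 and 120 of 122 Car4- cells at P1. Late cells made up 268 of 272 and 265 of 268 at P21. For the steps from E18.5 and to P21, age and label cannot be told apart. Early cells alone had 2059 and 2557 CPM at P1 and 886 and 734 CPM at P7.

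By edgeR, Lyve1 did not pass in these steps. Embryonic EC against P1 capillaries gave a log2 fold change of -1.32 (SE 0.39, adjusted p = 0.262), with 0 of 5 members called against a background of 0.494% of 14967 genes, of which 16% lay in both E18.5 mice below both P1 mice. P7 against P1 gave -1.69 (SE 0.38, unadjusted p = 0.000743, adjusted p = 0.379), the 27th smallest p of 14660 genes, of which 0% were called (1663 at an unadjusted p under 0.05) and 19.1% lay in both P7 mice below both P1 mice. DESeq2 gave Lyve1 adjusted p = 0.00847 and 0.000442 for these steps, calling 3.82% and 2.71% of genes. P21 against P7 gave 0.29 (SE 0.37, adjusted p = 0.844), where 0.266% of genes were called, 4.72% by DESeq2, and 19.7% lay in both P21 mice above both P7 mice, as Lyve1 did. Within 1 run, the female mice had 887 CPM in 13 Car4- cells at E18.5, 2077 at P1 and 944 at P21. The E18.5 value rests mostly on 1 cell, which held 84.0% of its Lyve1 reads, and 12 of those 13 cells were Late. P1 and P7 shared no run for CD31-gate cells, so run and age cannot be told apart there.

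Hyperoxia at P7 came with the highest Lyve1 of the Car4- capillaries. The level was 4023 CPM in the female and 3633 in the male hyperoxia mouse, against 825 and 732 CPM in normal conditions, and 152 of 153 and 126 of 132 cells carried the gene. Both hyperoxia mice lay above both P7 mice, as did 18.1% of 14660 genes tested. The log2 fold change was 2.27 (SE 0.39, unadjusted p = 6.56e-05), the 7th smallest p. Its adjusted p by edgeR was 0.132, with 0.0136% of genes called. With DESeq2, which called 1.23% of genes, it was 1.66e-07, and with thinned cells it was also under 0.05. It was not under 0.05 with RLE, no filter, limma or sex as a block. Over 16 alternatives the fold change stayed between 2.14 and 2.40. In the male mice, which shared 1 run, the level was 844 and 3633 CPM. The P7 controls are those of the age comparison. Macrophages also express Lyve1. The 6 leukocyte markers, led by Cd68, summed to 10.8 and 9.30 CPM at P7 and to 2.01 and 7.84 CPM after hyperoxia. The part of macrophage reads in the Lyve1 levels was not tested.

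Car4+ capillaries, the cells with the carbonic anhydrase gene Car4, had 1221 and 1265 CPM of Lyve1 at P1, 326 and 738 at P7, 213 and 260 at P21, and 2190 and 1697 after hyperoxia. The groups did not overlap, and the share of all genes that keep all of them apart was not computed. In the male P7 mouse 52.5% of the Lyve1 reads were in 1 of 24 cells. Hyperoxia gave a log2 fold change of 1.53 (SE 0.53, adjusted p = 0.731; DESeq2 0.209), where 0% of 12284 genes were called (757 at an unadjusted p under 0.05; 2.18% by DESeq2) and 19.8% lay above in both mice. P21 against P7 gave -1.31 (SE 0.52, adjusted p = 0.858), with 0.00814% called, 2.07% by DESeq2, and 12.8% lying below in both mice. The 6 leukocyte markers summed to 6.17 and 1.03 CPM at P7 and to 1.92 and 2.12 CPM after hyperoxia, without a relation being tested. In the shared run of the male mice the level was 625 CPM at P7, 352 at P21 and 1697 after hyperoxia.

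Proliferative EC, the cycling cells of these lungs, had 1103 and 1085 CPM at E18.5, 1724 and 1961 at P1, 1117 and 801 at P7, and 2901 and 2554 after hyperoxia. Again the mice of P1 lay above those of E18.5, and those of hyperoxia above those of P7. The log2 fold change was 0.85 (SE 0.43, adjusted p = 0.658) for P1 against E18.5, where 9.72% of genes lay above in both mice, and 1.49 (SE 0.43, adjusted p = 1) under hyperoxia, where 16.6% of 13102 genes lay above in both mice. edgeR called 0% of genes in either comparison, where 972 and 339 had an unadjusted p under 0.05 and DESeq2 called 3.86% and 0.87%. DESeq2 gave Lyve1 under hyperoxia an adjusted p of 0.0216. For P1 against E18.5 the median of all genes was displaced by -0.16.

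In venous EC, Lyve1 was high in every group. It was 2977 and 2236 CPM at E18.5, 2410 and 2032 at P1, 1952 and 1592 at P7, 2222 and 2857 at P21, the last from 4 cells, and 2240 and 1761 after hyperoxia. E18.5, P1 and P21 overlapped. Both P7 mice lay below both mice of each of these ages and overlapped with hyperoxia. That difference was not tested, and the share of all genes that show it was not computed. The log2 fold change was 0.17 under hyperoxia (approximate 95% interval -0.75 to 1.09, adjusted p = 1 by edgeR) and -0.39 for P1 against E18.5 (-1.31 to 0.53, adjusted p = 0.824), with 0% (331 at an unadjusted p under 0.05) and 0.0162% of 12326 genes called, and 0.755% and 4.41% by DESeq2. The median of all genes was displaced by 0.18 for P1 against E18.5.

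The response to hyperoxia was therefore set between classes, with the mouse as a term in the model; this test was added after the levels had been seen. The effect on Lyve1 in venous EC minus that in Car4- capillaries was -2.09 on the log2 scale (SE 0.25, unadjusted p = 5.2e-05), the smallest p of 13379 genes. Its adjusted p was 0.696 by edgeR, which called 0% of genes (483 had an unadjusted p under 0.05), and 7.2e-10 by DESeq2, which called 1.22%. Leaving out any of the 4 mice kept the difference between -2.17 and -1.98, with adjusted p from 0.151 to 1. For Car4+ minus Car4- capillaries the difference was -0.51 (approximate 95% interval -1.63 to 0.60, adjusted p = 1, 0% of 13240 genes called, with 438 at an unadjusted p under 0.05 and 1.59% called by DESeq2), and it turned to 0.31 without the male P7 mouse.

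The largest estimate for Lyve1 in any of the comparisons was in arterial EC I, between E18.5 and P1. At E18.5 it was 45.9 CPM in the female and 348 CPM in the male mouse, with the gene carried by 3 of 12 and 4 of 14 cells. At P1 it was 2941 and 3116 CPM, carried by 13 of 15 and 10 of 10 cells, and both P1 mice stood far above. The log2 fold change was 3.87 (SE 0.86, unadjusted p = 0.000596), the 11th smallest p of 10250 genes, of which 16.7% lay above in both mice. The adjusted p by edgeR was 0.554, with 0.0293% of genes called. With DESeq2, which called 2.4% of genes, it was 0.000649. It was also under 0.05 with limma, no filter, thinned cells and sex as a block. Over 14 alternatives the fold change ran from 3.04 to 5.95. Leaving out 1 of the mice compared leaves a group of 1 mouse without a spread of its own, so no p-value is given for those refits. The female mice, which shared a run, show the step. The 6 leukocyte markers summed to 3.26 and 1.18 CPM at E18.5 and to 22.7 and 1.08 CPM at P1, without a relation being tested. At P7 the level was 708 CPM in the female mouse and 358 in 4 cells of the male, and after hyperoxia 3019 and 4969 CPM, which was not tested because of the 4 cells.

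Set against venous EC in the same mice, the arterial step of Lyve1 was larger by 4.78 on the log2 scale (SE 0.87, adjusted p = 0.167 by edgeR, 0.00557 by DESeq2), again in a test added after the levels were seen. edgeR called 0.043% and DESeq2 2.41% of 11641 genes for this difference, whose median over all genes was -0.59. Leaving out each mouse in turn, which leaves 1 mouse at an age, gave differences from 3.07 to 6.55, the smallest without the female E18.5 mouse.

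The other 4 members were sparse in blood endothelium. Among its 2849 cells, Mmrn1 had a read in 161 (5.65%), Reln in 121 (4.25%), Prox1 in 77 (2.70%) and Pdpn in 27 (0.948%). Thinned to 50000 reads a cell, these shares were 3.56%, 0.458%, 1.23% and 0.317%. At 10 CPM or more, 105 cells carried Mmrn1, 31 Prox1, 5 Pdpn and 2 Reln. Leaving Lyve1 aside, 2710 blood-labelled cells carried none of them, 136 carried 1, 2 carried 2 and 1 carried 3.

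The 1 cell with 3 of these members, besides Lyve1, was labelled a Car4+ capillary and came from the female hyperoxia mouse. It had 579 CPM of Mmrn1, 253 CPM of Reln, 10.9 CPM of Prox1, 1766 CPM of Flt4 and 242 CPM of Ccl21a, together with 4926 CPM of Car4 and 1174 CPM of Ednrb, genes of Car4+ capillaries. It had 368025 reads in genes and held 40.8% of all blood reads of Reln. Leaving out this cell and 2 E18.5 cells with 3 members changed the side of the threshold of no member in any comparison.

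After Lyve1, Mmrn1 had the most carriers among blood-labelled cells. It was carried by 8.46% of proliferative, 8.31% of nonproliferative embryonic and 6.93% of Car4+ cells, and by 1.78% of Early and 0.643% of Late Car4- cells. In embryonic EC at E18.5 it was 25.6 and 15.3 CPM, carried by 19 of 134 and 7 of 168 cells. In proliferative EC it was 19.6 and 17.8 CPM at E18.5, carried by 20 of 122 and 10 of 84 cells, and 1.18 and 0 CPM at P1, where no cell of 13 and 9 carried it; at P7 it was 0.0494 and 0.112 CPM. The log2 fold change in proliferative EC for P1 against E18.5 was -5.08 (SE 2.53, adjusted p = 0.656 by edgeR), so the difference did not pass, on 22 cells at P1; 27% of genes lay in both P1 mice below both E18.5 mice.

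Over all CD31-gate blood endothelium Mmrn1 was 19.9 and 15.4 CPM at E18.5, 7.60 and 3.34 at P1, 4.25 and 0.239 at P7, and 0.617 and 0.00995 at P21. Both E18.5 mice lay above all others, and the share of all genes that do so was not computed. In Car4+ capillaries it was 12.6 and 7.23 CPM at P1, 24.8 and 119 at P7, 1.24 and 0.0376 at P21, and 35.5 and 28.6 after hyperoxia. The male P7 value came almost whole (99.8% of 920 reads) from 1 cell outside the CD31 gate: its 18 CD31-gate cells had 0.672 CPM. P21 against P7 gave a log2 fold change of -7.09 (SE 1.85, adjusted p = 0.858 by edgeR; 8.76e-06 by DESeq2), and -4.27 with CD31-gate cells alone. Under hyperoxia the estimate was -1.55 (SE 1.45, adjusted p = 0.919 by edgeR) and turned to 1.04 with CD31-gate cells alone. Platelets hold multimerin 1, and the 4 platelet markers in Car4+ sums ran from 0 to 111 CPM, with 7.04 and 8.02 CPM in the P7 mice and 18.1 and 111 CPM under hyperoxia; their part in these levels was not tested.

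**Figure D4:**
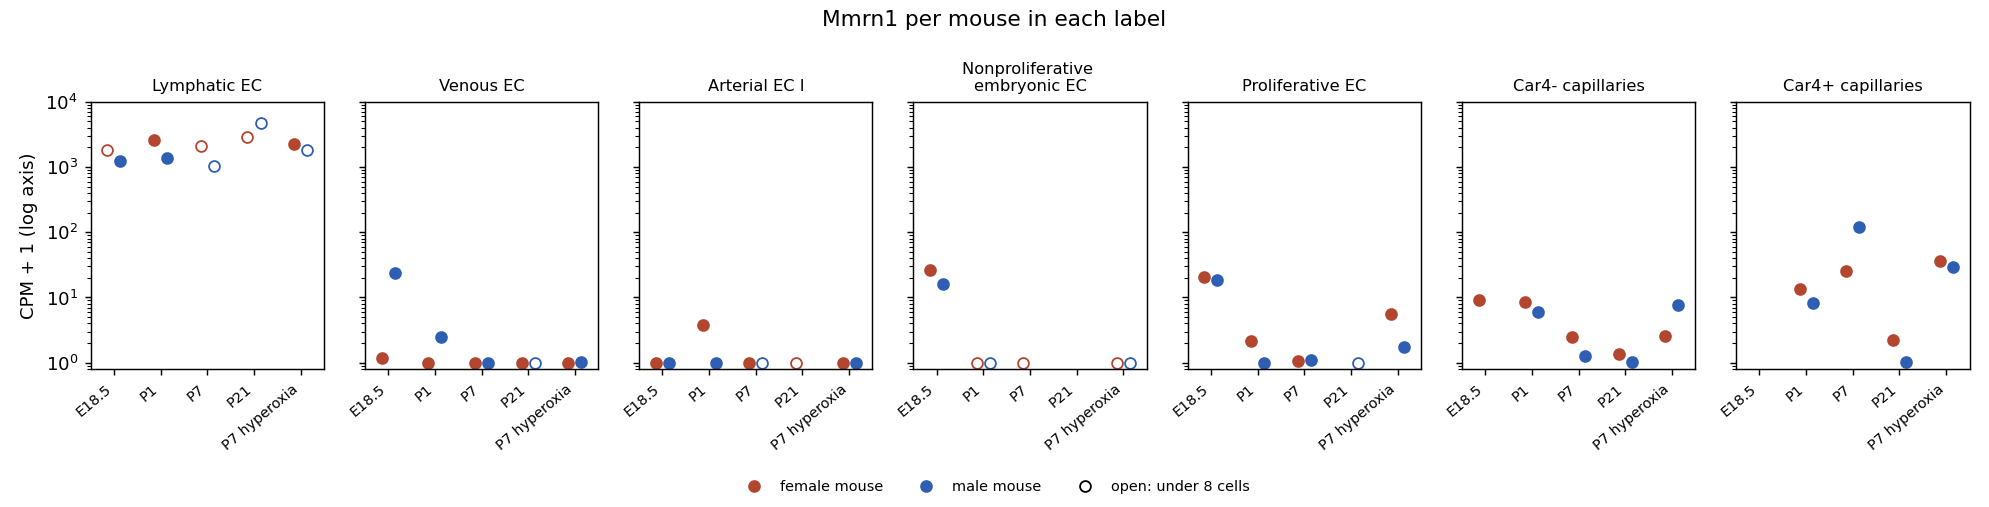
Mmrn1 as CPM + 1 (log axis) per mouse in 7 classes of cells, by group; red is the female and blue the male mouse, and open points stand for under 8 cells. Lymphatic sums lie above 1000 CPM in every mouse, and in blood the embryonic and proliferative sums of E18.5, the Car4- sums of P1 and the Car4+ sums of P1, P7 and hyperoxia lie above 5 CPM in both mice.

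Prox1 in blood endothelium rested on few cells. The 10 richest cells held 80.1% of its blood reads, and 1 Late Car4- cell of the female P21 mouse, at 570 CPM, held 33.1%. Venous EC had the largest share of carriers, 12 of 203 cells (5.91%), against at most 1.20%, in Car4+ capillaries, among the other labels. Venous sums were 15.6 and 21.7 CPM at E18.5, each from 1 cell, 40.2 and 3.32 at P1, 0 and 3.91 at P7, 0.0711 and 0 at P21, and 8.45 and 2.10 after hyperoxia. In Car4- capillaries Prox1 was 8.02 and 0.0807 CPM at P1, 0.00542 and 0.0342 at P7, and 7.44 and 0.478 at P21. DESeq2 called it for P7 against P1 (adjusted p = 0.0114) and for P21 against P7 (0.00535), where edgeR gave 0.39 and 0.377. Of the 1452 reads of the female P21 mouse, 85.8% were in 1 cell. Venous EC of P1 and E18.5 overlapped, with a log2 fold change of -0.01 (SE 2.17, adjusted p = 1 by edgeR).

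Reln and Pdpn in blood endothelium were near the limit of a read per cell. Reln reached at most 0.564 CPM in the blood sum of a mouse and Pdpn 0.166 CPM, against 678 ± 225 and 14.9 ± 8.69 CPM in lymphatic EC (SD, n = 6 mice). The 2 cells that carried Reln had 253 and 17.7 CPM. The highest Pdpn of a blood cell was 24.4 CPM, in an Early Car4- cell of the male hyperoxia mouse. Alveolar type 1 cells also express Pdpn, and in Car4- sums of P1 to P21 and hyperoxia the 5 markers of that type summed to 16.7 to 123 CPM, without a relation being tested.

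The genes most like each member were taken over 59 sums of a mouse and a label, 6 of them lymphatic, among 7098 genes with at least 20 CPM in lymphatic EC, by Pearson's r of log2(CPM + 1), as a description. The sums share mice and runs, and 4 members have their high values in the 6 lymphatic sums. Prox1 was most like Sema3d (r = 0.925), Adamtsl1 (0.892) and Apba2 (0.885). Pdpn was most like Dtx1 (0.987), Lcn2 (0.979) and Hoxd3os1 (0.978), and Reln like Hoxd3os1 (0.991), Ptx3 (0.989) and Dtx1 (0.989). Mmrn1 was most like Reln (0.858), Slc45a3 (0.849) and Dtx1 (0.848). Lyve1 stood apart, with Crtap (0.636), Cdk9 (0.622) and Sec61b (0.616) ahead of every member, of which Prox1 came nearest at 0.317.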

How the data were processed

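The values are raw read counts of each gene in each cell, as deposited by the authors. They come from plate-based Tn5 libraries without molecular identifiers, per the labels' protocols. Per the submitters' processing notes, STAR 2.5.2b, HTSeq 0.10 and the build GRCh38 were named; the gene annotation and the strand setting are not given in the sources used here. The submitters' subtype labels were used as deposited, and doublets were not called. The 5 members and all lists were chosen with earlier results of these data known.

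Counts were summed per mouse and class and scaled to CPM. Sums of blood classes with at least 8 cells in both mice of a group, and lymphatic sums of at least 5 cells, were tested with edgeR 4.0.16 (TMM, filterByExpr, quasi-likelihood test, all groups of a class in 1 model), with Benjamini-Hochberg adjustment over all genes tested and a threshold of 0.05. A member's fold change is reported where its mean was at least 10 CPM in the higher group. Like genes are the 3 with the highest r. Alternatives were DESeq2 1.42.0, RLE, no filter, CD31-gate cells alone, thinning to 50000 reads, limma 3.58.1 on log2(mean CPM + 1), each mouse left out, sex as a block, and cells with 3 or more members left out. The fitting code was tested on simulated data.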

Additional observations from a re-analysis of the deposited data

How the results depend on the processing

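Of 215 refits of the 14 comparisons, 193 called the same number of members as the values above, 0; the other 22 called 1 or 2. With DESeq2 the count was 1 for embryonic EC against P1 capillaries, 2 for Car4- capillaries at P7 against P1 (Prox1 and Lyve1), and 1 each for Car4- capillaries at P21 against P7 (Prox1), Car4- capillaries under hyperoxia, Car4+ capillaries at P21 against P7 (Mmrn1), proliferative EC under hyperoxia and arterial EC I at P1 against E18.5. Over all genes DESeq2 called 572, 398, 692, 180, 254, 114 and 246 in these comparisons, in the same order, where edgeR called 74, 0, 39, 2, 1, 0 and 3. With no filter it was 1 for Car4+ capillaries at P21 against P7 and 1 for arterial EC I, and with cells thinned 1 for Car4- capillaries under hyperoxia and 1 for arterial EC I, which also had 1 with sex as a replicate block and 1 with limma. The remaining changes came with a mouse left out, for Car4- capillaries at P7 against P1 and under hyperoxia and for arterial EC I. Leaving out a mouse of a group compared leaves that group with 1 mouse and no spread of its own, so these refits are not weighed. The block changed no other call; mouse names differ between groups, so sex is the only shared label.

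The age test missed 0.05 for Prox1 with all gates (p = 0.343), thinned cells (0.429), mean CPM over cells (0.333) and Car4- and embryonic EC alone (0.448, added after values were seen), and for Mmrn1 with a pseudocount of 0.1 (0.0857), all gates (0.0571), thinned cells (0.0857) and mean CPM (0.124).

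Log2 fold changes that reversed had adjusted p from 0.854 to 1 in the refit; the cause was not tested. In lymphatic EC, Reln for P1 against E18.5 was 0.025 with the sex block, 0.46 thinned, 0.45 with limma, -0.33 to 0.17 with each mouse left out (highest without the male P1 mouse) and 0.29 with all 10 mice. For P7 against P1, thinning and limma gave 0.059 and 0.029 for Prox1, 0.093 and 0.37 for Pdpn and 0.13 and 0.21 for Mmrn1; Pdpn ran from -0.92 to 0.40 with each mouse left out (highest without the male P1 mouse) and Lyve1 0.19 with all 10 mice. Under hyperoxia, thinning gave -0.28 for Prox1, 0.51 for Lyve1 and -0.12 for Mmrn1; Lyve1 was 0.59 with limma, -0.49 to 0.31 with each mouse left out (above 0 without the female P1 or male hyperoxia mouse), and Pdpn 0.45 with all 10 mice. In Car4+ capillaries under hyperoxia, Mmrn1 was 1.04 with CD31-gate cells alone and -2.23 to 0.29 with each mouse left out (highest without the male P7 mouse). In venous EC, P1 against E18.5 gave Prox1 0.11 with no filter, 0.51 thinned, and -2.51 to 0.91 with each mouse left out (0.14 without the male E18.5 and 0.91 without the male P1 mouse), and Mmrn1 -10.4 to 1.79 (highest without the male E18.5 mouse); Lyve1 under hyperoxia ran from -0.037 without the male P7 mouse to 0.50. Car4+ minus Car4- capillaries gave Lyve1 -1.37 to 0.31 (highest without the male P7 mouse).

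With 2 mouse names per group and 82 lymphatic cells, levels of Pdpn and all values of lymphatic EC at P21 rest on few reads or cells.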
